A study of Mus musculus with 6 samples.

Results

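Mucins are the large O-glycosylated proteins of airway mucus. A set of 10 genes of mucus production was followed here in cultured mouse tracheal epithelium, and all 10 symbols are among the 20483 genes of the count table. Of these, *Muc5ac* and *Muc5b* encode the 2 secreted, gel-forming mucins of the airway. *Muc1*, *Muc4*, *Muc16* and *Muc20* encode 4 mucins that stay anchored in the cell membrane. The other 4 are genes of mucus-producing cells: *Agr2*, a protein of the endoplasmic reticulum needed for mucin folding, *Spdef*, a transcription factor of goblet cells, *Itln1*, a secreted lectin, and *Fcgbp*, a secreted mucus-binding protein. Their rows were found by symbol.

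Gel-forming mucins are packed into granules, released onto the airway surface and moved by cilia together with the particles they trap. Membrane mucins form a brush on the cell surface and on cilia. In the mouse trachea *Muc5b* is the gel-forming mucin of unchallenged secretory cells, whereas *Muc5ac* is known for its rise in allergic inflammation.

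The cells came from tracheas of 3 *WT/WT* and 3 *Dnaaf5 MIS/MIS* littermate mice of the C57BL/6 strain, 12 weeks of age, grown at air-liquid interface (the labels call the second genotype DNAAF5 Mutant). *MIS* is a germline missense allele, made by CRISPR editing with a silent change beside it, of *Dnaaf5*, a factor that preassembles the dynein motors of motile cilia, so every cell type of the mutant cultures carried it. Each library was the culture of 1 mouse, profiled by a droplet 3' assay that counts transcript molecules by unique molecular identifiers (UMIs). The authors assigned each of 23871 cells to 1 of 16 cell types, of which 2 are secretory, 4 multiciliated and 8 basal, beside ionocytes and neuroendocrine cells.

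Between 2673 and 6710 cells and between 100961835 and 153326568 UMIs were available per mouse. Median UMIs per cell lay between 21328 and 35383, the lowest in mutant mouse MT1383. That mouse also stood apart in its secretory cells, 88.8% of which were Secretory1 cells, against 47.2% to 67.2% in the other 5. Most cell type names were matched by their markers: *Scgb1a1* and *Scgb3a2* were highest in Secretory1, *Foxj1* in Multiciliated2, *Krt5* in Basal4, *Trp63* in Basal3, *Chga* in neuroendocrine cells and *Foxi1* in ionocytes. Basal8 was an exception. Its 6 basal markers summed to 180.7 CPM, below the 216.8 CPM of Secretory2, and the secretory marker *Cyp2f2* was highest there, at 9754 CPM against 9436 CPM in Secretory1. The other secretory markers were lower in Basal8 than in Secretory1. All 6 summed to 12872 CPM in Basal8, against 76590 CPM in Secretory1 and 19208 CPM in Basal2. Of 23804 cell barcodes, 67 occurred in more than 1 library, in 134 cells, 3 of which held a *Muc5ac* or *Muc5b* UMI. *Dnaaf5* itself is not a check of the genotype labels, since the missense allele is still transcribed and the counts do not separate alleles. Its level in multiciliated cells was 43.2 ± 5.68 CPM (SD, n = 3; CPM is the number of UMIs of a gene in 1000000 UMIs of the same cells) in *WT/WT* and 53.0 ± 3.21 CPM (n = 3) in *MIS/MIS* mice.

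A 3' tag is counted once per molecule, so CPM was not divided by gene length. In all cells together, *Agr2* (153478 UMIs) and *Muc1* (132430 UMIs) were the most abundant of the 10 genes, followed by *Muc4* (46116), *Muc16* (23501), *Itln1* (18503) and *Fcgbp* (8879). *Muc20* was found with 1334 UMIs. The gel-forming mucins were near the floor of the assay, with 568 UMIs of *Muc5b* in 271 cells and 191 UMIs of *Muc5ac* in 180 cells. *Spdef* was as scarce, with 469 UMIs in 447 cells. In 171 of its 180 cells *Muc5ac* was seen as a single UMI, and no cell held more than 4. *Muc5b* was more concentrated: 10 cells held 19.4% of its UMIs, and the highest, a Secretory1 cell of *WT/WT* mouse 1, held 22.

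**Figure D1:**
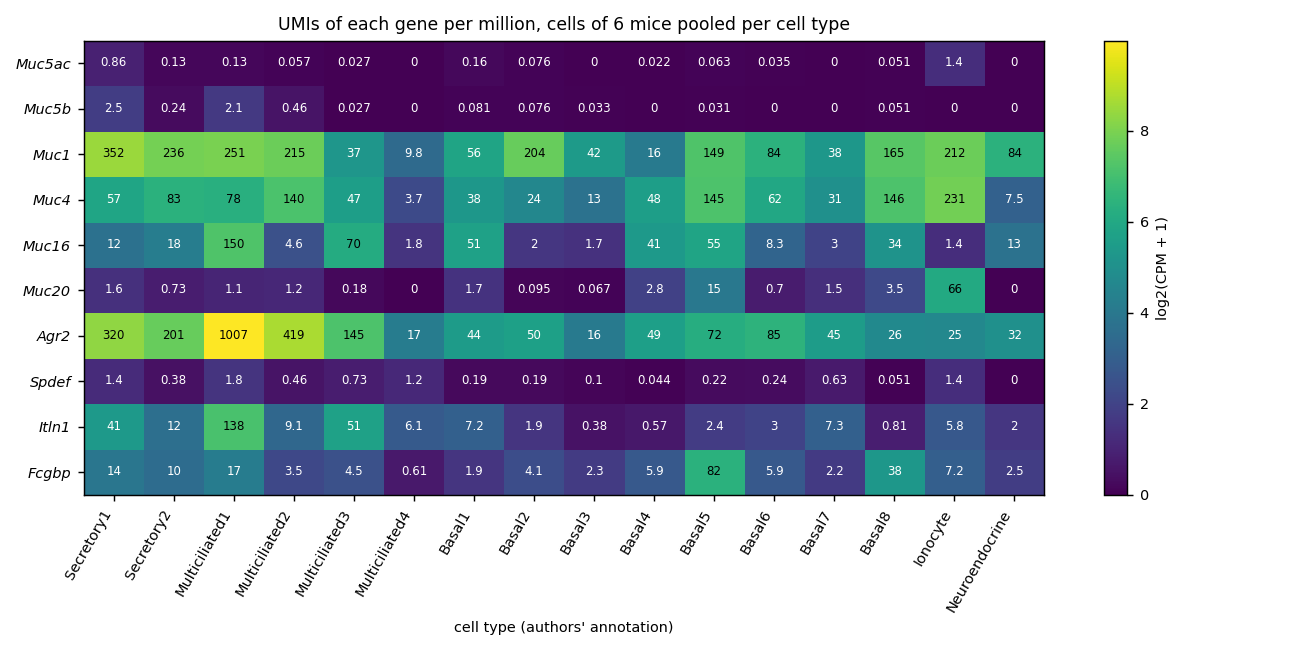
Level of each of the 10 genes (rows) in each of the 16 cell types (columns), as CPM of the pooled cells of 6 mice; colour is log2(CPM + 1) and the number in each field is the CPM. *Muc1* spreads over secretory, multiciliated and basal cell types, *Agr2*, *Itln1* and *Muc16* peak in Multiciliated1, *Fcgbp* peaks in Basal5, and the *Muc5ac* and *Muc5b* rows stay under 3 CPM throughout.

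In the GENCODE M21 annotation of GRCm38, the build named mm10 in the submitters' processing notes, *Muc5ac* (chr7:141788972-141819231) and *Muc5b* (chr7:141839070-141873084) lie side by side on the plus strand, 19838 bases apart. *Muc4* (chr16:32735886-32782391, plus strand) and *Muc20* (chr16:32777419-32797435, minus strand) overlap over 4973 bases. Whether the authors' counting used the strand is not given in the sources used here, so a part of the *Muc20* count could come from *Muc4* transcripts, and the reverse. *Muc1* lies on chromosome 3 (89229057 to 89233381), *Muc16* on chromosome 9 (18495455 to 18674530), *Agr2* on chromosome 12 (35992907 to 36004087), *Spdef* on chromosome 17 (27714352 to 27728955), *Itln1* on chromosome 1 (171518122 to 171535294) and *Fcgbp* on chromosome 7 (28071236 to 28120862).

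Among the 14 cell types that could be averaged over mice, the gel-forming mucins were highest in Secretory1 cells, which hold secretoglobins and *Reg3g*. *Muc5b* there was 5.85, 1.93 and 0.614 CPM in the *WT/WT* mice and 1.11, 2.38 and 4.35 CPM in the *MIS/MIS* mice MT1301, MT1306 and MT1383. The genotypes overlapped, and the mean was 2.71 ± 2.01 CPM (SD, n = 6). Multiciliated1 cells came next with 1.94 ± 1.63 CPM (n = 6), and the ranges of the 2 cell types overlapped. Within a mouse, Secretory1 was above Multiciliated1 in 4 of 6 mice. In Secretory2 cells *Muc5b* was 0.212 ± 0.212 CPM, below Secretory1 in 6 of 6 mice.

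*Muc5ac* was 0.473, 0.536 and 0.702 CPM in the Secretory1 cells of the *WT/WT* mice and 0.740, 1.25 and 1.48 CPM in those of the *MIS/MIS* mice. Its mean of 0.863 ± 0.407 CPM (n = 6) was 4.51 times that of Secretory2, the cell type that followed (0.191 ± 0.164 CPM), and Secretory1 was the higher of the pair in 6 of 6 mice. Secretory1 cells held 76.96% of all *Muc5ac* UMIs and 75.9% of all *Muc5b* UMIs. Multiciliated1 cells held 14.4% of the *Muc5b* UMIs but only 2.6% of those of *Muc5ac*.

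Few cells carried either transcript. Of 4861 Secretory1 cells, 4.32% held a *Muc5b* UMI (95% exact binomial interval 3.77% to 4.93%) and 2.80% a *Muc5ac* UMI (2.35% to 3.30%). Multiciliated3 cells, which should lack both, gave 0.0737% for each gene (2 of 2712 cells), at a median of 26360 UMIs per cell against 33387 in Secretory1. With each cell thinned to 5000 UMIs the Secretory1 shares were 1.36% and 0.329%. No UMI of either gene was found in 163 neuroendocrine cells, which allows a share of up to 1.84% of cells with a UMI, nor in 146 Multiciliated4 cells, which allows up to 2.05%. These intervals and limits cover counting error only.

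Secretory1 cells with a *Muc5b* UMI differed from the rest of the cell type in the other mucus genes, a description of cells that share libraries. The 210 cells with a *Muc5b* UMI held *Agr2* at 654 CPM, against 304 CPM in the 4651 cells without, and the difference had this sign in 6 of 6 mice. *Itln1* was 84.0 against 38.8 CPM (6 of 6 mice), and *Muc5ac* was 3.09 against 0.756 CPM (5 of 6 mice). *Muc16* did not differ in this way, with 12.0 CPM in both sets of cells and the higher value in cells with a *Muc5b* UMI in 3 of 6 mice. Median depth of the pooled cells was 34292 and 33347 UMIs per cell. All these CPM and depths pool the mice, and 91 of the 210 cells came from MT1383. That mouse had the highest *Agr2* (476 CPM) and *Itln1* (74.6 CPM) in Secretory1, so the sizes of the differences also hold differences between mice. A *Muc5ac* UMI was found in 10.95% of the cells with a *Muc5b* UMI and in 2.43% of the others.

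Over all cells the membrane mucins summed to 279 times the secreted ones, and they spread over most cell types. *Muc1*, a signalling mucin of most epithelia, led among them. In Secretory1 cells it was 397, 269 and 389 CPM in *WT/WT* mice and 278, 453 and 432 CPM in *MIS/MIS* mice. Its mean there, 370 ± 78.1 CPM (n = 6), was above that of Secretory2 (251 ± 70.6 CPM), Multiciliated1 (237 ± 65.6 CPM) and Multiciliated2 (236 ± 58.0 CPM), in 6 of 6 mice for each, although the ranges over mice overlapped. A *Muc1* UMI was found in 97.7% of Secretory1 cells. The lowest level, 10.96 CPM in Multiciliated4, was 33.7 times lower. All 146 cells of that type held 16 *Muc1* UMIs, and the range over mice overlapped that of Basal4 (13.1 ± 13.7 CPM).

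*Muc4*, which can bind the receptor kinase ErbB2, had a different order. It was 150, 143 and 147 CPM in the Multiciliated2 cells of *WT/WT* mice and 124, 185 and 131 CPM in those of *MIS/MIS* mice, a mean of 147 ± 21.0 CPM (n = 6). Basal8 (130 ± 25.2 CPM, n = 5) and Basal5 (129 ± 48.1 CPM, n = 5) were within the spread of that value. Secretory1 cells, the peak of *Muc1*, held 58.9 CPM of *Muc4*. In the 28 ionocytes, too few per mouse for a mean over mice, pooled *Muc4* was 231 CPM and every cell held a UMI of it.

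*Muc20* was rare except in 2 cell types. In ionocytes it was found in 16 of 28 cells, or 57.1% (95% exact binomial interval 37.2% to 75.5%), at a pooled 66.3 CPM. The 3 mice that contributed ionocytes gave 50.7, 75.2 and 65.4 CPM from 2, 7 and 19 cells. In Basal5 cells *Muc20* was 15.4 ± 6.29 CPM (n = 5), and the lowest of these mice, at 8.79 CPM, was still above the highest value in any mouse of Basal8, which followed at 3.19 ± 2.64 CPM. The 3 genes with the most similar pattern over the 16 cell types were *Plcg2* (r = 0.86), *Acsm3* (r = 0.84) and the chloride channel gene *Cftr* (r = 0.82). *Muc4*, which overlaps *Muc20*, was also high in ionocytes and Basal5 cells, but Multiciliated2 cells, with the highest mean of *Muc4*, held only 1.70 CPM of *Muc20*. Whether reads of one were counted for the other was not tested.

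*Muc16*, the largest membrane mucin, followed neither *Muc1* nor *Muc4*. It peaked in Multiciliated1 cells, with 229, 150 and 141 CPM in *WT/WT* mice and 131, 212 and 124 CPM in *MIS/MIS* mice. Multiciliated3 cells, the largest multiciliated type, followed with 80.7 ± 47.3 CPM, below Multiciliated1 in 6 of 6 mice. In Secretory1 cells *Muc16* was only 11.2 CPM and was found in 12.7% of cells, against 70.2% of Multiciliated1 cells. Basal cell types were split, from 60.8 ± 41.5 CPM in Basal1 and 55.7 ± 22.1 CPM in Basal5 down to 1.30 CPM in Basal3, and *Muc16* of Basal1 ranged from 11.3 to 108 CPM between mice.

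**Figure D2:**
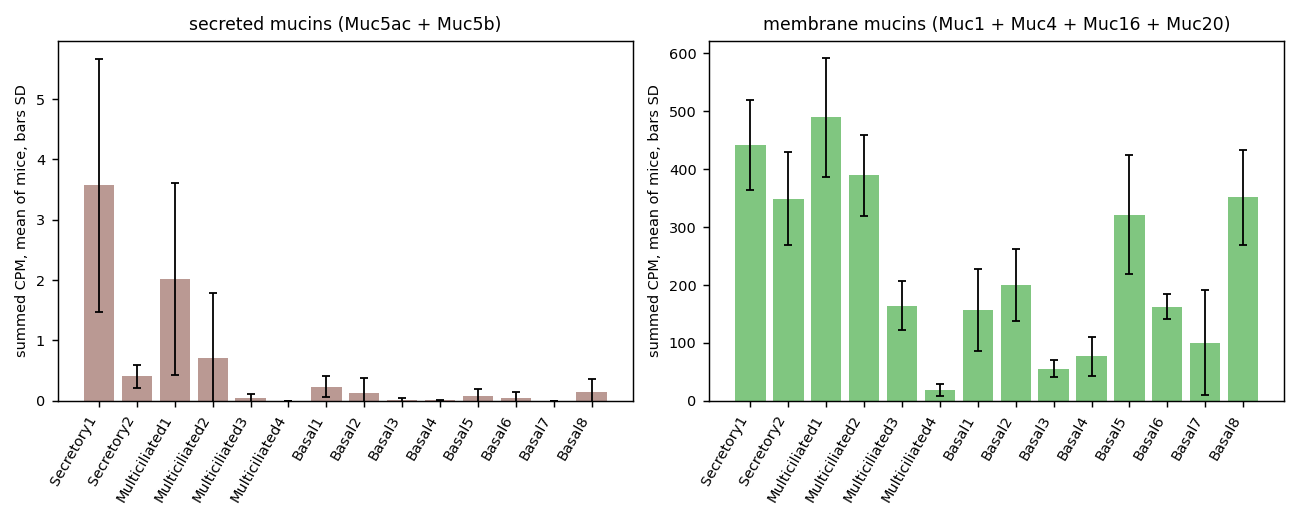
Summed CPM of the secreted mucins (left, *Muc5ac* and *Muc5b*) and of the membrane mucins (right, *Muc1*, *Muc4*, *Muc16* and *Muc20*) in the 14 cell types with values from at least 3 mice; bars are the mean of the mice with at least 20 cells and whiskers the SD. The secreted sum is seen mainly in Secretory1 (3.57 CPM) and Multiciliated1 (2.02 CPM), while the membrane sum stays between 55.7 and 490 CPM in all types except Multiciliated4.

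Summed, the secreted mucins reached 3.57 ± 2.10 CPM in Secretory1 and 2.02 ± 1.59 CPM in Multiciliated1 (n = 6 each), and stayed under 1 CPM in the other 12 cell types that could be averaged over mice. The membrane mucins summed to 490 ± 103 CPM in Multiciliated1, 442 ± 78.2 CPM in Secretory1, 389 ± 69.6 CPM in Multiciliated2 and 351 ± 81.9 CPM in Basal8 (n = 5). Multiciliated4 had the lowest membrane sum, 18.2 ± 10.2 CPM, so that the membrane sum varied 26.9-fold between cell types. That lowest value rests on 25 UMIs in 146 cells, at a median of 10197 UMIs per cell. Basal3 had the next lowest sum, 55.7 ± 14.5 CPM. In Secretory1, 0.796% of mucin UMIs were of the gel-forming kind, and in Multiciliated1 0.470%. The make-up of the membrane sum differed as well. Over pooled cells *Muc1* made up 83.3% of it in Secretory1 and *Muc16* 45.2% of it in Multiciliated3. In Basal4, where 1048 of 1365 cells came from *WT/WT* mouse 1, the leading gene differed between mice: *Muc4* led in that mouse, *Muc16* in *WT/WT* mouse 3 and *Muc1* in MT1306.

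By mean over mice, none of the 4 mucus-cell genes had its highest level in Secretory1 or Secretory2. By class, *Agr2* and *Itln1* were highest in multiciliated cells, while *Spdef* was 1.10 CPM in secretory against 0.826 CPM in multiciliated cells, and *Fcgbp* 12.5 CPM in secretory against 12.2 CPM in basal cells. *Agr2* was 1266, 634 and 1503 CPM in the Multiciliated1 cells of *WT/WT* mice and 1104, 761 and 935 CPM in those of *MIS/MIS* mice. The lowest of these values was above the highest of Multiciliated2 (607 CPM), the cell type that followed at 446 ± 86.5 CPM, and above the highest of Secretory1 (476 CPM), at 315 ± 103 CPM. *Agr2* was found in 91.6% of Multiciliated1 cells, in 77.2% of Secretory1 cells and in 6.75% of neuroendocrine cells, which should lack it, at median depths of 32469, 33387 and 10351 UMIs. After thinning to 5000 UMIs the first 2 shares, as means of the mice, were 74.0% ± 9.59 and 47.6% ± 10.5 (SD, n = 6). One Multiciliated1 cell of *WT/WT* mouse 3 held 725 *Agr2* UMIs of 49419 in all.

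*Itln1* had the same leading cell type. Multiciliated1 cells held 206, 87.9 and 146 CPM in *WT/WT* mice and 130, 118 and 139 CPM in *MIS/MIS* mice, a mean of 138 ± 39.2 CPM (n = 6). Multiciliated3 (55.0 ± 37.8 CPM) and Secretory1 (40.1 ± 18.02 CPM) were lower in 6 of 6 mice each. The lowest mean was 0.292 CPM in Basal4. *Spdef* was 1.51 ± 0.564 CPM in Multiciliated1 and 1.35 ± 0.785 CPM in Secretory1 (n = 6), values that did not differ beyond their spread. Its mean of 1.73 CPM in Multiciliated4 rests on 2 UMIs in 2 mice. *Fcgbp* stood apart with its peak in a basal cell type: Basal5 cells held 112 and 68.9 CPM in *WT/WT* mice 1 and 3 and 64.2, 52.0 and 70.9 CPM in the *MIS/MIS* mice, a mean of 73.6 ± 22.6 CPM (n = 5). It was 14.1 ± 4.22 CPM in Secretory1.

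**Figure D3:**
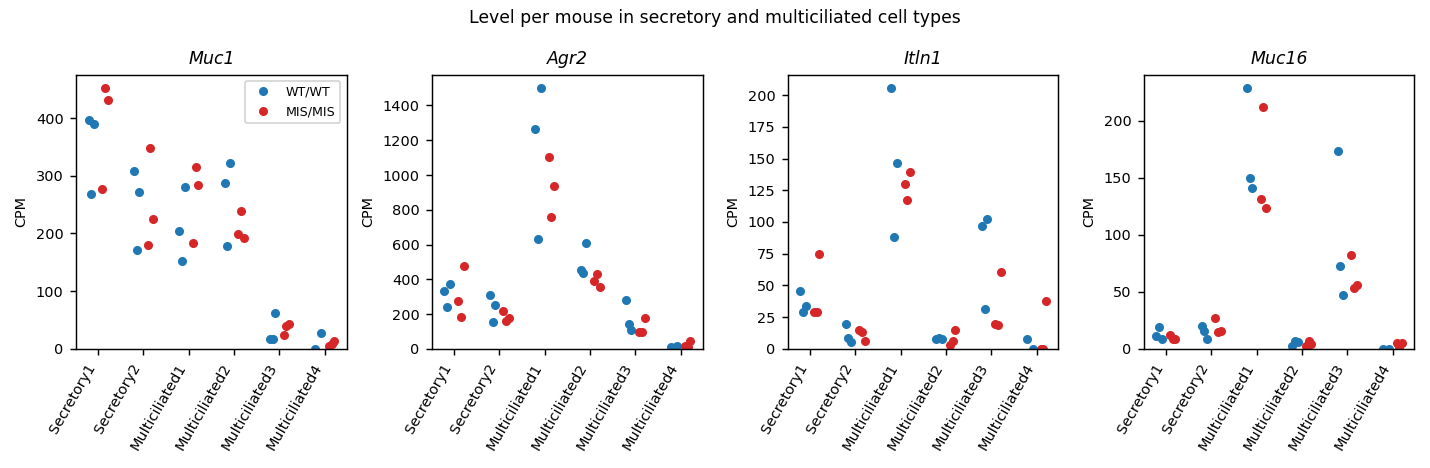
CPM (y axis) of *Muc1*, *Agr2*, *Itln1* and *Muc16* in the secretory and multiciliated cell types (x axis), 1 point per mouse with at least 20 cells, *WT/WT* in blue and *MIS/MIS* in red. *Agr2*, *Itln1* and *Muc16* are highest in Multiciliated1, where the 6 *Agr2* values lie between 634 and 1503 CPM, while *Muc1* is highest in Secretory1.

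Multiciliated1 cells carried markers of both lineages. Summed over 6 genes each, secretory markers were 37530 CPM there, against 76590 CPM in Secretory1 and 5881 CPM in Multiciliated3, and multiciliated markers were 1446, 28.2 and 5664 CPM in the same order. Their median depth of 32469 UMIs was below that of Secretory1 (33387) and above that of Multiciliated3 (26360). Whether pairs of cells caught in 1 droplet contribute to this cell type was not tested. Their levels of *Agr2*, *Itln1* and *Muc16* were above those of both Secretory1 and every other multiciliated type, by 2.32, 2.51 and 2.04 times over the cell type that followed.

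Sequences from before the annotated starts of the 3 genes that peak in Multiciliated1 and of *Muc1*, the most abundant mucin, are shown because the first 3 shared a leading cell type and *Muc1* did not. They are the 250 bases before the RefSeq start on GRCm38.p6, 5′ to 3′ on the strand of the gene. Capitals mark the TATA box core TATAAA, the forkhead core TGTTTAC or CCGGAT, the ETS core with the base preferred by SPDEF, on either strand. *Agr2* is at chr12:35992675-35992924 (plus strand), *Itln1* at chr1:171535295-171535544 (minus strand), *Muc16* at chr9:18674604-18674853 (minus strand) and *Muc1* at chr3:89228806-89229055 (plus strand).
*Agr2*: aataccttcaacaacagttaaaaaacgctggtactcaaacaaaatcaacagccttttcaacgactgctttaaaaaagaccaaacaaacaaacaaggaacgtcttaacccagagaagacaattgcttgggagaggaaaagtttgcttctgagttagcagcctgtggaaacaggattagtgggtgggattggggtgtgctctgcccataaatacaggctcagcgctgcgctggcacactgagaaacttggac
*Itln1*: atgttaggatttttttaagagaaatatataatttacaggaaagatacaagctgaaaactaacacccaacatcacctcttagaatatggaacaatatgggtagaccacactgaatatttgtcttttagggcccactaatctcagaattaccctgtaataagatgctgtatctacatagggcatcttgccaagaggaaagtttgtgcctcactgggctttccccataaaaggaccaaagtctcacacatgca
*Muc16*: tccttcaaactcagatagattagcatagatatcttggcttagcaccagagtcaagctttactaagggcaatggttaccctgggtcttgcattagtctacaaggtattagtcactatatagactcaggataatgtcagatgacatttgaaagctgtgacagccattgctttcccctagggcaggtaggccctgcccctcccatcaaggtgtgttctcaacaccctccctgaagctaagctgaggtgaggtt
*Muc1*: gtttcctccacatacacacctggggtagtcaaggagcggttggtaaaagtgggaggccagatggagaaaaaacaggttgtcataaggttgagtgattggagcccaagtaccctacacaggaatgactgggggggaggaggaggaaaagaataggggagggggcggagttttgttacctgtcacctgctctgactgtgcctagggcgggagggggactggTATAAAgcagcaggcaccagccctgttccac
RefSeq promoters were at hand for 8 of the 10 genes, without *Muc5ac* and *Muc5b*. The TATA core was found before *Muc1*, 31 to 26 bases from the start, and before *Muc4*, 36 to 31 bases from it, and in 12.4% of 32851 promoters of this length. The forkhead core was found before *Muc20* and in 3.17% of promoters. CCGGAT was found before none of the 8 and in 4.94%, and ETS cores with other bases were not searched for. None of these letters were in the *Agr2*, *Itln1* and *Muc16* windows, which says nothing about other motifs or other windows.

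Over the 16 cell types, *Agr2* and *Itln1* (r = 0.78 of log2(CPM + 1)), *Spdef* and *Itln1* (r = 0.78) and *Agr2* and *Muc5b* (r = 0.77) had the most similar patterns among the 10 genes, and *Muc5ac* and *Muc16* the least similar (r = -0.20). With fewer than 1000 UMIs each, *Muc5ac*, *Muc5b* and *Spdef* have values of r that can turn on single UMIs. The highest *Muc5ac* level, 1.44 CPM in ionocytes, came from 1 UMI. Among all genes with at least 1000 UMIs, those most like *Itln1* were *Tcf24* (r = 0.91), the chemokine gene *Ccl28* (r = 0.88) and *Cxcl17* (r = 0.86). Those most like *Muc1* were *Nt5dc3* (r = 0.89), *Acsm1* (r = 0.85) and *Ehbp1* (r = 0.85), and those most like *Agr2* were *Ccr2* (r = 0.84), *Dnase1l2* (r = 0.80) and *Tnfsf13os* (r = 0.79). *Muc16* was followed most closely by *Mink1* (r = 0.81), *Pllp* (r = 0.81) and *Itgb7* (r = 0.78), *Muc4* by *Gm43259*, *Ercc3* and *Gm43445* (r = 0.82 to 0.83) and *Fcgbp* by *AI661453*, *Taok3* and *Acsl1* (r = 0.79 to 0.80). These values describe 16 cell types that share 6 libraries, and small types weigh as much as large ones.

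To ask whether impaired dynein assembly in the mutant cultures went with a different mucus program, UMIs were summed per mouse over the secretory, multiciliated or basal cells and tested with limma's voom test over all genes with Benjamini-Hochberg adjustment. None of the 10 genes passed an adjusted p of 0.05 in any of the 3 cell classes. In secretory cells 0 of 10 passed, and 0 were under an unadjusted p of 0.05, where 0.00735% of 13610 genes passed and 258 were under that p. In multiciliated cells 0 of the 9 tested passed and 2 were under the unadjusted p, where 0.00704% of 14206 genes passed and 614 were under it. In basal cells 0 of the 8 tested passed and 0 were under the unadjusted p, where 0% of 14615 genes passed and 334 were under it. The limma trend method gave the same counts for the 10 genes. *Muc5ac* was filtered out in multiciliated and basal cells, and *Muc5b* in basal cells, for low counts.

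**Figure D4:**
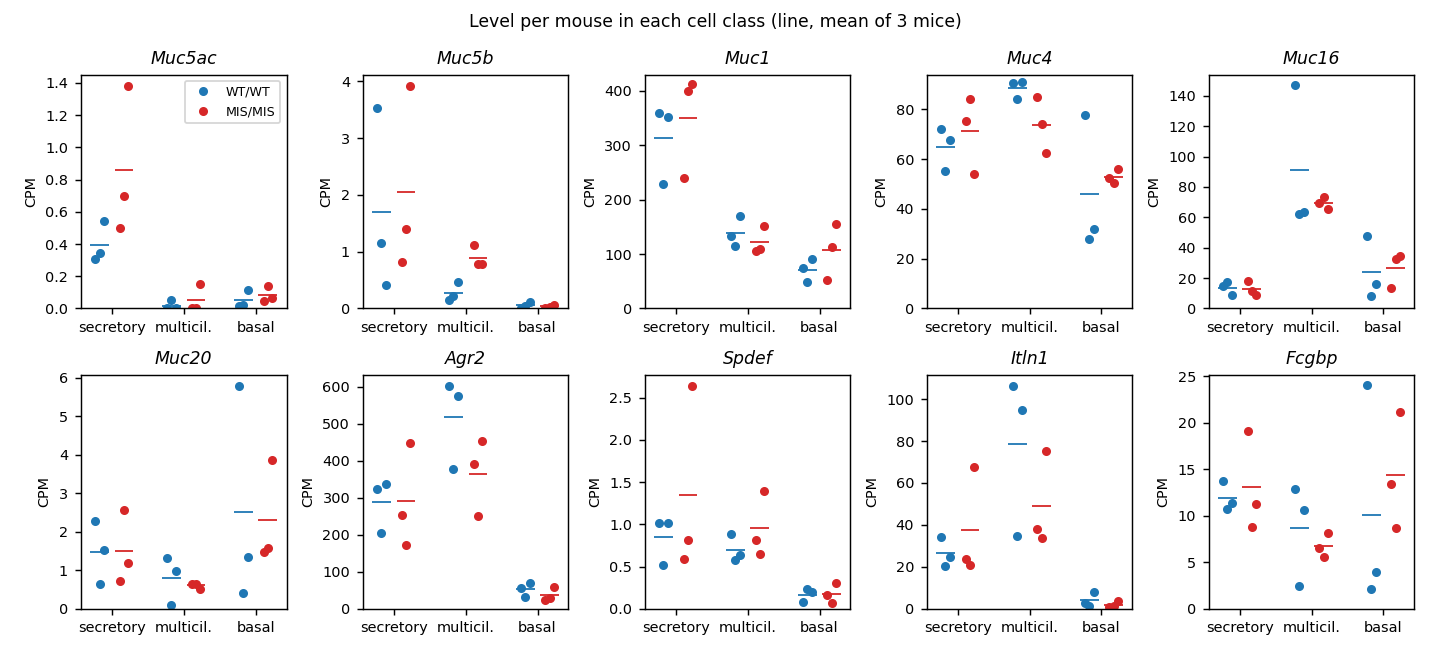
CPM (y axis) of each of the 10 genes per mouse in secretory, multiciliated and basal cells (x axis), *WT/WT* in blue and *MIS/MIS* in red, with a line at the mean of 3 mice. The genotypes overlap in each panel and class shown except *Muc5b* in multiciliated cells, where the *WT/WT* mice lie between 0.148 and 0.460 CPM and the *MIS/MIS* mice between 0.779 and 1.12 CPM.

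In secretory cells *Muc5b* varied more between mice, relative to its level, than any other mucin of the set. *Muc5b* was 3.52, 1.16 and 0.420 CPM in *WT/WT* and 0.813, 1.40 and 3.92 CPM in *MIS/MIS* mice. The log2 fold change (*MIS/MIS* minus *WT/WT*) was 0.38 with a 95% interval of -1.45 to 2.20 (adjusted p = 1.00). *Muc5ac* was 0.305, 0.341 and 0.540 CPM in *WT/WT* and 0.501, 0.699 and 1.38 CPM in *MIS/MIS* mice, a log2 fold change of 0.97 ± 0.47 (SE; 95% interval -0.12 to 2.07, adjusted p = 1.00). The genotypes overlapped for all 10 genes in secretory cells, where 5.5% of genes tested did not overlap. In Secretory1 cells alone the *Muc5ac* values given above did not overlap, as was the case for 6.24% of genes there, and the log2 fold change was 0.91 (0.04 to 1.79, adjusted p = 1.00 by limma's voom test).

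Of the membrane mucins of secretory cells, *Muc1*, *Muc4* and *Muc16* were bounded more closely than the gel-forming mucins. *Muc1* was 359, 229 and 352 CPM in *WT/WT* and 240, 399 and 412 CPM in *MIS/MIS* mice, with a log2 fold change of 0.14 (95% interval -0.44 to 0.73). *Muc4* was 71.9, 55.0 and 67.5 CPM against 75.2, 84.1 and 54.1 CPM, with a log2 fold change of 0.12 (-0.26 to 0.49). For *Muc16* it was -0.09 (-0.85 to 0.67) and for *Muc20* 0.10 (-1.26 to 1.46). A change of 2-fold in either direction lies outside the intervals of *Muc1*, *Muc4* and *Muc16* but inside those of *Muc20* and *Muc5b*. For *Muc5ac* a 2-fold increase lies inside the interval and a 2-fold decrease outside it.

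None of the mucus-cell genes of secretory cells passed the threshold. *Agr2* was 324, 206 and 336 CPM in *WT/WT* and 252, 172 and 447 CPM in *MIS/MIS* secretory cells (log2 fold change -0.08, -0.93 to 0.77). *Itln1* was 34.2, 20.4 and 24.8 CPM against 23.5, 20.8 and 67.9 CPM (0.34, -0.73 to 1.40). *Spdef* was 1.02, 0.519 and 1.02 CPM against 0.588, 0.816 and 2.64 CPM (0.46, -0.96 to 1.88). For both, the highest value was that of mutant mouse MT1383, and without it the sign of both fold changes turned, to -0.20 for *Itln1* and -0.15 for *Spdef*. *Fcgbp* had a log2 fold change of 0.14 (-0.51 to 0.79).

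In multiciliated cells *Muc5b* was the gene of the set that differed most. It was 0.148, 0.211 and 0.460 CPM in *WT/WT* mice and 1.12, 0.779 and 0.789 CPM in *MIS/MIS* mice, so the genotypes did not overlap, as for 10% of the genes tested there. The log2 fold change was 1.63 ± 0.42 (SE; 95% interval 0.65 to 2.61, unadjusted p = 0.0050 and adjusted p = 0.90 by limma's voom test), which did not pass the threshold. These values rest on few cells. The *WT/WT* multiciliated cells held 14 *Muc5b* UMIs in 1, 3 and 4 cells per mouse, and the *MIS/MIS* cells 86 UMIs in 4, 5 and 17 cells, with up to 12 UMIs from 1 cell. The mean share of multiciliated cells with a *Muc5b* UMI was 0.569% among *WT/WT* and 0.723% among *MIS/MIS* mice. In Multiciliated1 cells alone *Muc5b* was 0.508, 0.233 and 1.504 CPM against 4.73, 2.27 and 2.39 CPM (log2 fold change 1.92, 0.62 to 3.22, adjusted p = 0.99), again without overlap, as for 7.82% of genes there. Multiciliated1 cells made up 24.7%, 21.3% and 21.8% of multiciliated cells in *WT/WT* mice and 17.3%, 13.4% and 28.0% in *MIS/MIS* mice. Secretory markers of all multiciliated cells summed to 12206 to 18684 CPM in *WT/WT* and 10958 to 17901 CPM in *MIS/MIS* mice.

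*Muc4* was 90.3, 84.2 and 90.8 CPM in the multiciliated cells of *WT/WT* and 84.8, 74.0 and 62.6 CPM in those of *MIS/MIS* mice, with a log2 fold change of -0.29 (95% interval -0.57 to -0.02, unadjusted p = 0.038 and adjusted p = 0.90 by limma's voom test). *Agr2* was 603, 377 and 574 CPM against 390, 249.3 and 454 CPM (log2 fold change -0.56, -1.13 to 0.01). *Itln1* was 106, 34.5 and 94.7 CPM against 37.8, 33.8 and 75.4 CPM (-0.61, -1.66 to 0.45). Both sets of values overlapped. *Muc16* was 147, 62.4 and 63.8 CPM against 69.3, 73.4 and 65.8 CPM (-0.28, -0.98 to 0.43). Its sign turned to 0.13 without *WT/WT* mouse 1, the highest of the 6. *Muc1* (-0.22, -0.61 to 0.17), *Spdef* (0.49, -0.42 to 1.41), *Fcgbp* (0.08, -1.13 to 1.29) and *Muc20* (0.17, -1.58 to 1.91) had intervals that contained 0.

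**Figure D5:**
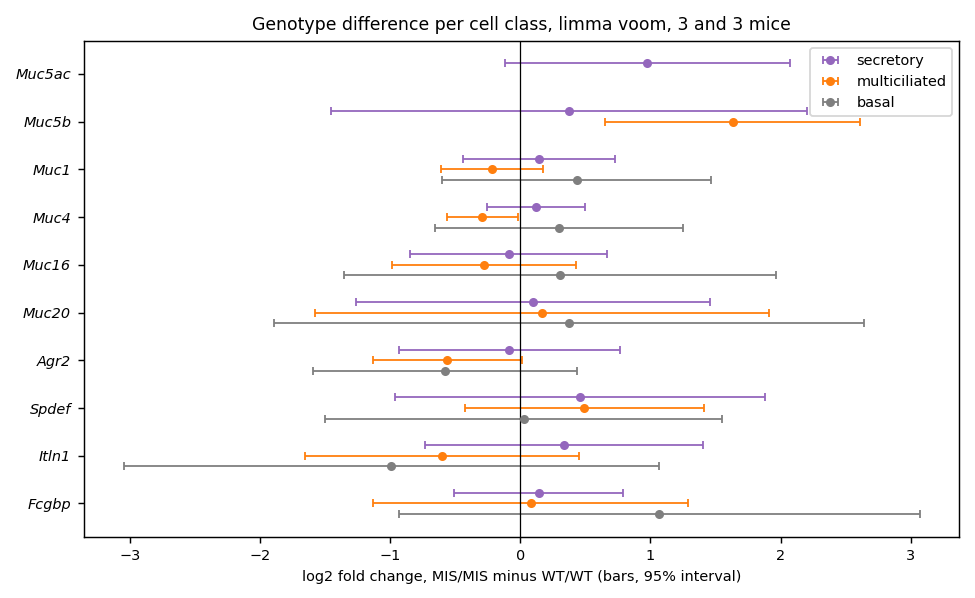
Log2 fold change between *MIS/MIS* and *WT/WT* mice (x axis) of each gene (y axis) in secretory, multiciliated and basal cells, by limma's voom test on sums of 3 and 3 mice; bars are 95% intervals before any adjustment for the number of genes tested. Intervals of *Muc5b* and *Muc4* in multiciliated cells leave out 0, none passed the adjusted threshold, and genes filtered out for low counts have no point.

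In basal cells the 95% intervals of the 8 genes tested were wider than in the other classes. *Fcgbp* was 24.1, 2.13 and 3.93 CPM in *WT/WT* and 13.4, 8.65 and 21.2 CPM in *MIS/MIS* mice (log2 fold change 1.07, -0.93 to 3.07). It was 2.23 without *WT/WT* mouse 1 and 0.38 without *WT/WT* mouse 2. *WT/WT* mouse 1 and mutant mouse MT1383 were high, and these mice held 262 and 729 of the 1180 Basal5 cells, the peak of *Fcgbp*. They had 1834 and 2836 basal cells in all. Whether Basal5 cells contribute to their basal *Fcgbp* level was not tested. *Muc20* was 5.79, 0.398 and 1.33 CPM against 1.47, 1.57 and 3.86 CPM (0.37, -1.89 to 2.64), with the same mice highest. *Itln1* was 2.75, 1.17 and 8.05 CPM against 0.769, 1.29 and 3.89 CPM (-0.99, -3.05 to 1.07). The genotypes overlapped for all 8 genes tested, where 7.96% of genes did not.

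With all cells of a mouse summed, 0 of 10 genes passed and 0 were under an unadjusted p of 0.05 (limma's voom test and the limma trend method), where 0% of 16461 genes passed and 937 were under that p by voom. All 10 overlapped, against 11.7% of genes that did not. In such sums fewer cells of a type and less RNA per cell cannot be told apart. The secreted sum was 0.807 ± 0.286 CPM in *WT/WT* and 1.15 ± 0.538 CPM in *MIS/MIS* mice (SD, n = 3 each) and the membrane sum 260 ± 35.3 and 287 ± 50.3 CPM. In secretory cells the secreted sum was 2.10 ± 1.52 against 2.91 ± 2.12 CPM and the membrane sum 393 ± 79.4 against 436 ± 89.1 CPM. In multiciliated cells they were 0.290 ± 0.158 against 0.946 ± 0.170 CPM and 319 ± 55.6 against 266 ± 11.8 CPM.

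Whether the difference between genotypes itself differed between cell classes was tested with a term for class and genotype in 1 fit of 18 sums, with the mouse as a block. Of 15503 genes 0% passed in each of the 3 contrasts between classes (limma's voom test), and 697, 539 and 444 were under an unadjusted p of 0.05 for multiciliated against basal, secretory against basal and secretory against multiciliated cells. None of the 10 genes passed. The lowest unadjusted p was that of *Muc1*, whose log2 fold change was 0.64 lower in multiciliated than in basal cells (a difference of -0.64, 95% interval -1.17 to -0.11, adjusted p = 0.98). *Itln1* followed, with a log2 fold change 1.37 higher in secretory than in basal cells (adjusted p = 1.00). For *Muc5b* in multiciliated against secretory cells the difference was -0.43 as secretory minus multiciliated (-4.40 to 3.53), an interval too wide to tell the classes apart.

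Genes that act with the mucins were taken from 5 lists. Of the 9 other mucin genes in the table, 3 were tested in secretory cells. *Cd164*, a small sialomucin, held 191 CPM there, *Muc2*, the gel-forming mucin of the intestine, 1.20 CPM and *Muc15* 0.370 CPM. *Muc2* was highest in Secretory1 and *Muc15* in Basal4 cells (12.8 CPM). Among 18 goblet cell regulators the most abundant in secretory cells were *Nfe2l2* (385 CPM), the ETS factor gene *Elf3* (278 CPM) and the Notch target *Hes1* (269 CPM). None of these 3 had its peak there.

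Of 25 genes of mucin folding and O-glycosylation the leading ones were the chaperone gene *Hspa5* (417 CPM), *Galnt3* (67.4 CPM), which starts O-glycan chains, and *Pdia4* (63.6 CPM). *Galnt3* was highest in Multiciliated2 (139 CPM), and *Hspa5* and *Pdia4* in Multiciliated3. Of 21 genes of granule release, the SNARE gene *Vamp8* (699 CPM), the cotransporter gene *Slc12a2* (140 CPM) and the adenosine receptor gene *Adora2b* (62.4 CPM) led. *Vamp8* was highest in Secretory2 and Secretory1, and *Slc12a2* in ionocytes at 2026 CPM. Of the proteins released with mucus, *Bpifa1* (13446 CPM), *Scgb3a2* (10197 CPM) and lactoferrin (*Ltf*, 2600 CPM) led, each with its peak in Secretory1. Of the 19 genes of that list in the table, 11 were highest in Secretory1 by pooled CPM over all 16 cell types. By that measure *Muc5b* and *Muc1* were also highest there, and *Muc5ac* in ionocytes, from 1 UMI.

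None of the genes of the 5 lists passed the threshold in a class with limma's voom test or the limma trend method. In secretory cells, 0 of 3 other mucins, 17 goblet regulators, 19 folding and glycosylation genes, 18 release genes and 16 co-secreted proteins passed, with 0, 1, 0, 0 and 1 under an unadjusted p of 0.05. In multiciliated cells, 0 of 2, 16, 20, 18 and 11 passed, with 0, 2, 1, 1 and 0 under that p, and in basal cells 0 of 4, 17, 20, 18 and 12, with 0, 0, 2, 0 and 0. The median log2 fold changes in secretory cells were 0.01, 0.05, 0.01, -0.03 and 0.24 in the same order of lists, beside -0.00 over all genes tested. For the 10 genes it was 0.14 in secretory cells, and -0.22 in multiciliated cells (9 genes), beside 0.01 over all genes there. Secretory1, the peak of 11 of the 19 co-secreted genes, made up 88.8% of the secretory cells of mutant mouse MT1383, the highest share of the 6 mice. Whether this share contributes to the 0.24 of that list was not tested.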

How the data were processed

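The study sequenced single-cell 3' libraries of tracheal epithelial cells from 6 mice. The submitters' processing notes name Cell Ranger 7.1.0 and mm10. Seurat was used upstream, per the study's methods, to filter cells by mitochondrial content and genes detected (the upper limit meant to remove doublets) and to cluster them, with cell types named by hand. Cells beyond these limits were still in the table, where 23216 of 23871 lay within them, and no further doublet caller was run. The authors deposited unnormalized UMI counts of every gene in every cell, beside a cell table with UMI totals, genes detected, mitochondrial percent and cluster names. All counts were whole, and their sums equalled the totals of the cell table. Because both tables were written with a mistyped separator, limma's voom test took the place of the negative binomial count test that had been planned. The numbers of the mutant animals occur in no title, so these libraries were placed by group only. No columns (0) were left out.

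UMIs were summed per mouse and cell class, scaled by TMM factors, and kept for genes reaching, in 3 mice, the CPM that 10 counts give in a library of median size, and 15 counts in all. limma 3.58.1 (R 4.3.3) was run with a threshold of 0.05 on the adjusted p. On simulated sums with 2-fold changes and a dispersion of 0.02, the test recovered 89% of changed genes in secretory (13621 genes), 86% in multiciliated (14256 genes) and 92% in basal sums (14740 genes). With the dispersion raised to 0.1, recovery was 2% (13580 genes), 0% (14272 genes) and 1% (14766 genes). Each simulation gave all genes the same dispersion, not matched to the spread of any of the 10 genes, so these shares do not apply to single genes. Levels in a cell type are means over mice with at least 20 cells and carry no test, because the clusters were made from the same cells. The remaining steps used Python 3.11.15.

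The 10 genes, the related lists and the markers were chosen with earlier results of these data known. Named were all 10 genes, the 3 genes of each list highest in secretory cells, and the 3 genes most like each of the 10 that had at least 1000 UMIs. Alternatives covered scaling by median ratios, the low-count filter, thinning to 5000 UMIs, the stated cell limits and mean log-normalized expression. Others were the same mix of cell types in every mouse and leaving out each mouse. The mix weighted cell types by their cells over all mice, among types with at least 20 cells in each mouse. The limma trend method, Secretory1 or Multiciliated1 cells alone, and multiciliated cells without Multiciliated1 were added after seeing the data. Libraries came from separate mice, so p-values measure the spread between mice and their cultures.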

Additional observations from a re-analysis of the deposited data

How the results depend on the processing

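No gene of the 10 passed the threshold under any alternative run, over 511 fold changes of 37 combinations of gene and class, and the lowest adjusted p was 0.29. Of these values 59 had the opposite sign, and 13 of the 37 combinations never did. The cause was not tested. The planned negative binomial count tests were not run. No paired analysis was possible, because the sample labels used here give no litter and the numbers of the mutant animals match no title.

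The count of genes past the threshold in secretory cells went from 1 to 0 with thinned cells and ranged from 0 to 0 when each mouse was left out. In multiciliated cells it went from 1 to 2 with mean log-normalized expression. In all cells it ranged from 0 to 268, the highest without MT1301, and for the secretory minus basal contrast from 0 to 3, the highest without *WT/WT* mouse 2. With thinned cells, 6 of 10 genes kept the order of the secretory, multiciliated and basal shares, and the highest cell type of *Spdef* was Multiciliated1, as with pooled counts. Pooled counts put *Muc4* highest in Basal8 among the 14 cell types averaged over mice.

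With the same mix of cell types in every mouse, the log2 ratio of mean CPM was -0.057 for *Muc5b* in secretory cells. In multiciliated cells it was 0.047 for *Muc1*, -0.10 for *Muc20* and -0.31 for *Fcgbp*. This ratio is another measure than the voom fold change, and the multiciliated mix held 3 of 4 cell types. Without the mix, mean CPM in *WT/WT* and *MIS/MIS* mice was already 0.804 and 0.607 for *Muc20* and 8.65 and 6.75 for *Fcgbp*. In Multiciliated1 cells alone the log2 fold change was 0.27 for *Muc1* and -0.30 for *Fcgbp*. With the limma trend method it was -0.017 for *Muc20* in secretory, -0.080 for *Fcgbp* in multiciliated and -0.043 for *Spdef* in basal cells. With mean log-normalized expression, differences were -0.00058 for *Muc20* and -0.0080 for *Fcgbp* in multiciliated cells, -0.0012 for *Muc20* and -0.00011 for *Spdef* in basal cells, and -0.0029 for *Muc20* and 0.022 for *Itln1* in all cells. With thinned cells they were -0.011 for *Muc20* and 0.10 for *Itln1* in all cells.

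With each mouse left out in turn, log2 fold changes in secretory cells ranged from -0.23 to 1.03 for *Muc5b*, -0.049 to 0.40 for *Muc1*, -0.41 to 0.20 for *Muc16*, -0.61 to 0.62 for *Muc20*, -0.49 to 0.27 for *Agr2*, -0.15 to 1.02 for *Spdef*, -0.20 to 0.65 for *Itln1* and -0.22 to 0.39 for *Fcgbp*. In multiciliated cells they ranged from -0.50 to 0.13 for *Muc16*, -0.97 to 0.74 for *Muc20* and -0.75 to 0.47 for *Fcgbp*, and in basal cells from -0.25 to 1.07 for *Muc16*, -0.52 to 1.47 for *Muc20* and -0.41 to 0.49 for *Spdef*. In all cells they ranged from -0.13 to 0.78 for *Muc5b*, -0.029 to 0.27 for *Muc1*, -0.11 to 0.24 for *Muc4*, -0.14 to 0.54 for *Muc16*, -0.76 to 0.86 for *Muc20*, -0.48 to 0.10 for *Agr2*, -0.11 to 0.71 for *Spdef*, -0.53 to 0.24 for *Itln1* and -0.087 to 0.72 for *Fcgbp*. The adjusted p of *Muc5b* in multiciliated cells lay between 0.836 and 1.00 in the alternatives that tested it.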
